A study of Mus musculus with 3 samples.

Results

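The replication-dependent histone genes are the clustered gene copies that make most of the histone protein packed onto newly copied DNA. All genes of the deposited matrices whose symbols start with Hist1h, Hist2h, Hist3h or Hist4h were taken, which gave 67 of 32285 genes. Among them were 6 genes of the linker histone H1, 18 of H2A, 18 of H2B, 12 of H3 and 13 of H4. On GRCm38, 54 lay on chromosome 13, 10 on chromosome 3, 2 on chromosome 11 and 1 on chromosome 6. They were measured by droplet single-cell sequencing of transcript 3′ ends in mouse neural stem cells derived from postnatal day 1 mouse brain and expanded as neurospheres in 20 ng/mL epidermal growth factor. In each group 50000 neural progenitors had been plated 16 h before treatment, and 10000 cells were loaded after dissociation 4 h after it. The bulk electroporation library came from cells pulsed together in a Lonza Nucleofector, the localized electroporation library from cells given 400 pulses of 20 V on the device on which they had been plated, and the control library from cells labelled control. The labels name no cargo, no strain and no number of animals, and do not say on which of the 2 surfaces, dish or device, the control cells were grown. Plating on a device and localized electroporation therefore cannot be told apart. With 1 library for each group, differences have no replicate check and could not be tested, and intervals cover counting error only.

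Replication-dependent histone genes are switched on as cells enter S phase and supply the histone octamer (H2A, H2B, H3 and H4) and the linker histone H1 that binds between nucleosomes. Their messenger RNAs are unusual in ending not in a poly(A) tail but in a short stem-loop, which is bound by the stem-loop binding protein Slbp, cut with the help of the U7 small nuclear ribonucleoprotein, and degraded when DNA synthesis stops. Some of these genes can also make polyadenylated transcripts, in particular in cells that have left the cycle. The libraries were primed on poly(A), so a UMI (1 counted molecule) of a histone gene came either from a transcript with a tail or from priming inside the transcript, and the levels below are not those of all histone messenger RNA.

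The stem-loop that marks this RNA class was looked for as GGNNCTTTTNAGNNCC on the sense strand of the transcripts annotated by GENCODE vM21. It was found in 44 of the 67 histone genes, against 45 of 55383 other annotated genes, or 0.081%. The site with the 14 bases before it is given for the genes on which the results turn, with the stem-loop in capitals, because those bases are where an A-rich stretch could be primed.
Hist1h2ap (chr13:21833029-21833058, minus strand): agaaaaaaaaaaaaGGCTCTTTTCAGAGCC
Hist1h2ao (chr13:21810884-21810913, plus strand): agaaaaaaaaaaaaGGCTCTTTTCAGAGCC
Hist1h2ae (chr13:23570668-23570697, minus strand): gtaaaaaaaacaaaGGCTCTTTTCAGAGCC
Hist1h3c (chr13:23745047-23745076, minus strand): gctatttaaaaaaaGGCTCTTTTAAGAGCC
Hist1h2ab (chr13:23751558-23751587, plus strand): ttaaccaaaacaaaGGCTCTTTTCAGAGCC
Hist1h3f (chr13:23544918-23544947, plus strand): acgtaaaccaaaacGGCTCTTTTAAGAGCC
Hist1h2bb (chr13:23747189-23747218, plus strand): acaacaaacccaaaGGCTCTTTTAAGAGCC
Hist1h4h (chr13:23531444-23531473, plus strand): cctacaaaaccaaaGGCCCTTTTCAGGGCC
Hist3h2a (chr11:58955158-58955187, plus strand): ttacagacaccaaaGGCTCTTTTCAGAGCC
Hist3h2ba (chr11:58949335-58949364, plus strand): gcccccaacccaaaGGCTCTTTTCAGAGCC
Of the 44 stem-loops, 26 read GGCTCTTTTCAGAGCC, 7 read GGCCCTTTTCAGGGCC and 6 read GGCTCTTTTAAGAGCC, and the other 5 were spread over 3 further spellings. Among the sites printed, Hist1h2ap and Hist1h2ao had A at 13 of the 14 bases before the stem-loop and Hist1h2ae at 11. Hist1h2ab and Hist1h2bb had A at 9, Hist1h3c, Hist1h3f and Hist1h4h at 8, Hist3h2a at 7 and Hist3h2ba at 5.

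By annotation the genes fell into 3 sets. In 22 genes the transcript ended within 100 bases after the stem-loop (short end), and 0 of these held the poly(A) signal AATAAA in their last 60 bases. In another 22 it ran further (extended end), and 9 of these held AATAAA there. In 23 no stem-loop was found in the annotated transcripts, and 2 of these held AATAAA. The annotated transcripts of these 23 had a median length of 411 bases, the shortest being 312, against a median of 481 for short ends. Where an annotation stops before the 3′ end, the search could not find a stem-loop, so these genes may still have one.

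Among the genes with a stem-loop, the control library held the 4 whose longest run of A starting within 40 bases before the stem-loop reached 7 or more bases at a median of 602 CPM (UMIs of the gene scaled to the same total for each library's kept cells). The 7 genes with runs of 5 or 6 had a median of 36.0 CPM and the 33 with runs of 4 or fewer had a median of 9.49 CPM. The order did not hold gene by gene. Hist1h2ap and Hist1h2ao share the 30 bases printed above, yet Hist1h2ao had 0.310 CPM in bulk, 0.433 in localized electroporation and 0.210 in control. Hist1h1e, which encodes a linker histone, had 429 CPM in control with no run over 3 before its stem-loop. Over the 44 genes, Spearman's rho between this run and the level was 0.284 in bulk electroporation, 0.263 in localized electroporation and 0.297 in control, with the genes sharing the same 3 libraries and many near-identical coding sequences.

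**Figure D1:**
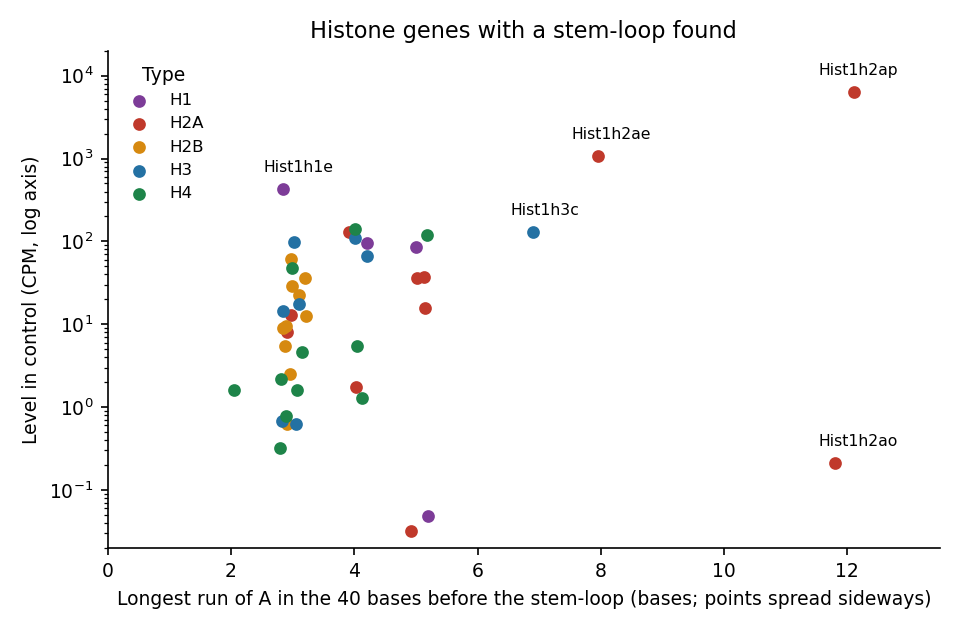
Level of each histone gene with a stem-loop in the control library (CPM, log axis) against the longest run of A starting in the 40 bases before the stem-loop, coloured by histone type. Hist1h2ap, at 6368 CPM, and Hist1h2ao, at 0.210 CPM, sit at the same run length of 12.

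How far copies can be told apart limits every single-gene value here. Of the 67 genes, 17 shared no 90-base stretch of the last 600 transcript bases with another gene, 21 shared up to 50% of such stretches, and 29 shared more. For Hist1h2ap 92.4% of stretches, for Hist1h2ae 38.4%, for Hist1h2br 60.9% and for Hist1h3f 63.4% recurred in other genes. Low levels in near-copies such as Hist1h2ao (92.8% shared), Hist2h2aa2 and Hist1h2bq (all shared) are therefore uncertain, and the sources used here do not say how reads of these copies were assigned. On the same strand, Hist1h1e overlaps Hist1h2be, Hist3h2a overlaps Trim17 and Hist2h2aa1 overlaps Gm20634, so their values are uncertain in the same way. Antisense genes are annotated over Hist1h2ap, Hist1h2ae, Hist1h2ab, Hist2h2ac, Hist2h2aa1 and Hist3h2a, and their part in these values was not tested.

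Promoters from RefSeq (GRCm38.p6, 250 bases before to 50 after the start) matched 62 of the 67 genes. The octamer ATTTGCAT, searched on both strands, was found in 7 of 18 H2A and 6 of 16 H2B promoters and in 0 of the 28 promoters of H1, H3 and H4, against 1.74% of all 32851 promoters. CCAAT, also on both strands, was in 53 of 62 histone promoters, 3 of them among the 12 of H4, against 37.4% of all promoters, and TATAAA was in 35 of 62, against 13.6%. A pair of octamer-bearing promoters is shown, with the octamer (or its reverse complement) in capitals, because their genes moved in opposite directions against control, as described further on.
Hist1h2bb (chr13:23746484-23746783, plus strand): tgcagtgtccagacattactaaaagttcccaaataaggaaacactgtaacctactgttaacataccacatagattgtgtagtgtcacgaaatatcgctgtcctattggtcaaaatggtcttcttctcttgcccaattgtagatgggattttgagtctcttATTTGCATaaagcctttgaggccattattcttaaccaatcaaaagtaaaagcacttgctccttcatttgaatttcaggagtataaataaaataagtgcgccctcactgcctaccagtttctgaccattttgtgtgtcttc
Hist3h2a (chr11:58954435-58954734, plus strand): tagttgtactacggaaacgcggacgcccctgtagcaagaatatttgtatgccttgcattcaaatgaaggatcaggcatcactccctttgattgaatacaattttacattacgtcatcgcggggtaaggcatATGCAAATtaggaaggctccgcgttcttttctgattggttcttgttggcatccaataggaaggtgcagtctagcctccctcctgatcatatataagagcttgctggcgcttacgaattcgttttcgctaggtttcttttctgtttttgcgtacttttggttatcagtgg

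Cells were barcodes of at least 3000 UMIs and 500 genes with at most 20% mitochondrial UMIs, of which there were 5531 in bulk electroporation, 6298 in localized electroporation and 6091 in control. Their median depth was 11644, 10981 and 9542 UMIs in that order, and 6 to 9 barcodes were shared by any pair of libraries. The neural stem or progenitor markers Nes, Sox2, Fabp7, Hes5, Vim and Slc1a3 were all present and summed to 8470 CPM in bulk, 10283 CPM in localized electroporation and 7506 CPM in control. Microglial markers, of which Aif1 and Tyrobp were at 0 in all 3 libraries, summed to at most 0.181 CPM and erythroid markers to at most 0.0131 CPM in any library. Astrocyte markers summed to 331 CPM in bulk, 754 CPM in localized electroporation and 299 CPM in control, oligodendrocyte precursor markers to 673, 876 and 607 CPM, and neuron markers to 235, 210 and 227 CPM. A split of the cells by precursor markers is given with the last results, and the part of the other lineages in the histone results was not tested.

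The 67 genes together held 538228 UMIs in bulk electroporation, 641842 in localized electroporation and 611481 in control. Their sum was 6946 CPM in bulk electroporation (95% Poisson interval 6927 to 6964), 8426 CPM in localized electroporation (8405 to 8446) and 9898 CPM in control (9874 to 9923). Both treated libraries were lower than control, by a log2 ratio of -0.51 for bulk and -0.23 for localized electroporation. A UMI total is shared by all genes. Fewer histone molecules per cell, fewer cells making them and more RNA of other genes therefore cannot be told apart in these sums. Barcodes of 10 to 100 UMIs, which hold free RNA, carried 5848 CPM of histone UMIs in bulk, 6607 in localized electroporation and 6335 in control.

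A single gene made up most of the sum. Hist1h2ap, an H2A gene at chr13:21833026-21833507, had 4220 CPM in bulk electroporation, 5448 CPM in localized electroporation and 6368 CPM in control, or 60.8%, 64.7% and 64.3% of the histone UMIs of those libraries. Next in control came Hist1h2ae, also H2A, with 473 CPM in bulk, 571 CPM in localized electroporation and 1075 CPM in control. Without these 2 genes the sum was 2252 CPM in bulk, 2407 CPM in localized electroporation and 2456 CPM in control, and the ratios to control shrank to -0.12 and -0.03. Most of the gap between the treated libraries and control thus lay in the UMIs of these 2 genes.

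The types did not move alike. H1 genes summed to 1178 CPM in bulk, 1236 CPM in localized electroporation and 1040 CPM in control, with log2 ratios to control of 0.18 and 0.25. Hist1h1b held the difference in bulk, since the other 5 H1 genes summed to 644 CPM in bulk, 729 CPM in localized electroporation and 653 CPM in control, with ratios of -0.02 and 0.16. H2A summed to 4909 CPM in bulk, 6240 CPM in localized electroporation and 7719 CPM in control, with ratios of -0.65 and -0.31. The other 17 H2A genes, most of whose UMIs in control were those of Hist1h2ae, had 689 CPM in bulk, 791 CPM in localized electroporation and 1352 CPM in control, with ratios of -0.97 and -0.77. Without Hist1h2ae as well, the remaining 16 had 215, 220 and 277 CPM in the same order, with ratios of -0.36 and -0.33. H3 was lower too, at 253 CPM in bulk, 296 CPM in localized electroporation and 459 CPM in control, with ratios of -0.86 and -0.63. The sums of H2B and H4 differed less. H2B had 303 CPM in bulk, 339 CPM in localized electroporation and 340 CPM in control. H4 had 302, 315 and 340 CPM in the same order. The H2B sum held genes that moved in opposite directions. Hist1h2bc had 113 CPM in bulk, 122 CPM in localized electroporation and 67.6 CPM in control. Against it, Hist1h2br had 21.7, 33.5 and 69.4 CPM and Hist1h2bb 26.4, 31.9 and 61.1 CPM. Of the 6 H2B genes compared singly further on, 3 lay above control and 3 below it in each treated library. H2B without Hist1h2bc was not summed, so the small difference need not hold for the other H2B genes. Over 6 other settings of scaling, depth and cell classes, H1 stayed above control, by 0.10 to 0.34 for bulk and 0.17 to 0.34 for localized electroporation, and H3 stayed below it, by ratios of -0.95 to -0.66 and -0.74 to -0.62. The ratio of H2B between localized electroporation and control changed sign among these settings, from -0.07 to 0.01.

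**Figure D2:**
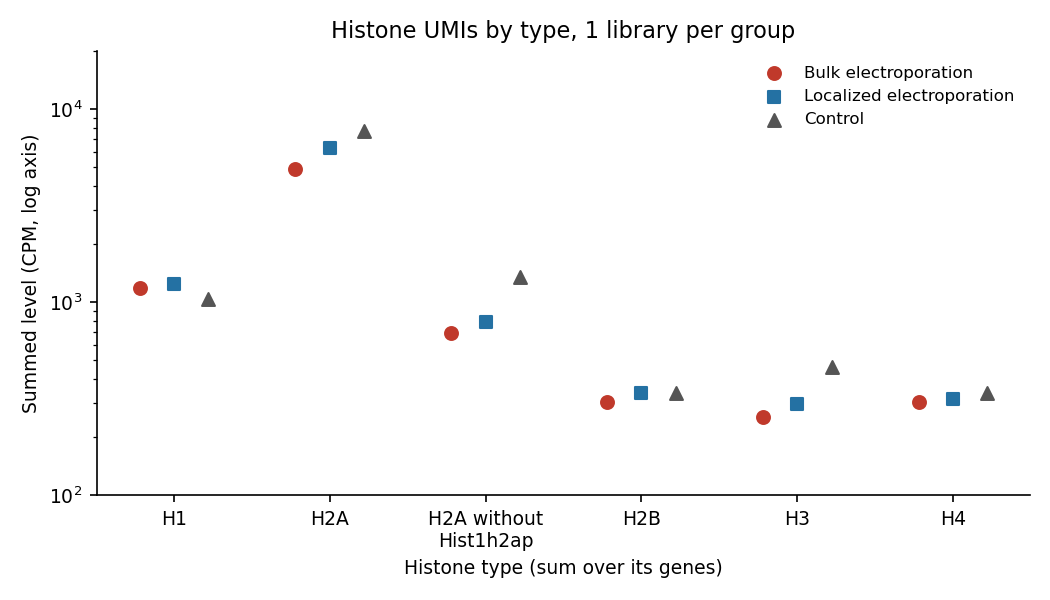
Summed level of each histone type (CPM, log axis) in bulk electroporation, localized electroporation and control, 1 point per library, with Poisson intervals smaller than the points. H1 is the type with both treated libraries above control. H3 and the H2A genes other than Hist1h2ap show the widest gaps below it, and for those H2A genes the ratios of -0.97 and -0.77 become -0.36 and -0.33 without Hist1h2ae.

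Gene by gene, 24 of the 67 histone genes reached 20 CPM in at least 1 library and 43 did not. Of the 43, 16 peaked between 5.50 and 18.1 CPM, 15 between 1.59 and 4.60 CPM, and 12 stayed under 1 CPM. The last set held the testis genes Hist1h1t, Hist1h2ba and Hist1h2aa. Hist1h2aa was counted in bulk electroporation alone, with 24 UMIs in 16 cells, and had 0 UMIs in localized electroporation and in control. Set against the limit of 3 UMIs per library that a count of 0 allows, its level in bulk was 6.38-fold that limit in control. It was 7.86-fold that limit in localized electroporation. The counting error of the 24 UMIs was not taken off, and up to 4 of them lay in 1 cell. Hist1h2ba had 1 UMI in bulk electroporation and 0 in the others.

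Bulk electroporation was compared with control to ask which histone genes differed 4 h after pulsing of the whole culture. All 24 histone genes could be compared at 20 CPM in either library. The gene Hist3h2a was at least 2-fold higher in bulk electroporation, 1 of 24, where 0.602% of all 5810 genes compared were that much higher. It had 24.4 CPM in bulk, 15.3 CPM in localized electroporation and 8.13 CPM in control, a log2 ratio of bulk to control of 1.48, and it passed the minimum through the bulk library alone. At least 2-fold lower were 6 of 24, against 0.602% of all genes. The median ratio of the 24 was -0.27, against 0.07 for all genes compared.

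The lower genes were spread over H2A, H2B and H3. Hist1h2br, an H2B gene transcribed away from Hist1h2ap, had 21.7 CPM in bulk and 69.4 CPM in control, a ratio of -1.63. Hist1h3c, an H3 gene, had 52.7 CPM in bulk and 130 CPM in control, a ratio of -1.29. Hist1h2bb had 26.4 CPM in bulk and 61.1 CPM in control (-1.18). Each of these is a core histone gene of the cluster on chromosome 13. Hist1h2ae, given above, stood at -1.18. Hist1h3f had 49.3 CPM in bulk and 109 CPM in control (-1.12). Hist1h2ab had 64.8 CPM in bulk and 131 CPM in control and met the 2-fold limit only just, at -1.004. All 4 H3 genes compared lay below 0, and 4 of the 5 H1 genes lay above it, where 62.0% of all genes lay above 0. No H1 or H4 gene reached 2-fold in either direction. In cells of 6000 to 20000 UMIs, and with each cell thinned to 3000 UMIs, Hist1h2br, Hist1h2ae and Hist1h3c stayed at least 2-fold lower and the other 3 did not.

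The H1 genes, whose proteins bind linker DNA, showed that even neighbouring genes differed. Hist1h1b had 534 CPM in bulk, 506 CPM in localized electroporation and 387 CPM in control, with ratios to control of 0.46 and 0.39. Hist1h1e had 430, 482 and 429 CPM in the same order. Hist1h1c had 99.6, 114 and 85.2 CPM. None of these 3 genes was lower in a treated library than in control, although the ratio of Hist1h1e in bulk ran from -0.07 to 0.18 over the 6 other settings. Hist1h1d was lower in bulk, with 63.1 CPM there, 93.4 CPM in localized electroporation and 95.4 CPM in control. Hist1h1a had 51.7 CPM in bulk, 40.1 CPM in localized electroporation and 43.9 CPM in control.

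Localized electroporation was set against the same control library. Of 23 histone genes compared, 0 were at least 2-fold higher, where 1.22% of all 5906 genes were, and 3 were at least 2-fold lower, where 1.02% were. The median of the 23 was -0.12, against 0.09 for all genes. The 3 lower genes were Hist1h3c, with 53.7 CPM in localized electroporation and 130 CPM in control (-1.26), Hist1h2ab, with 57.9 and 131 CPM (-1.16), and Hist1h2br, with 33.5 and 69.4 CPM (-1.03). All 3 were also among the 6 lower genes of bulk electroporation, with the same control library standing in both comparisons. Hist1h3f, at 59.5 CPM in localized electroporation, had a ratio of -0.86, Hist1h2bb, at 31.9 CPM, one of -0.91, and Hist1h2ae, given above, one of -0.91. Higher, but under 2-fold, were Hist1h2bc, with 122 CPM in localized electroporation and 67.6 CPM in control (0.84), Hist3h2a (0.84) and Hist3h2ba, with 54.8 and 36.3 CPM (0.58). Hist1h2bc had 113 CPM in bulk electroporation (0.73) and Hist3h2ba had 48.0 CPM there (0.39).

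**Figure D3:**
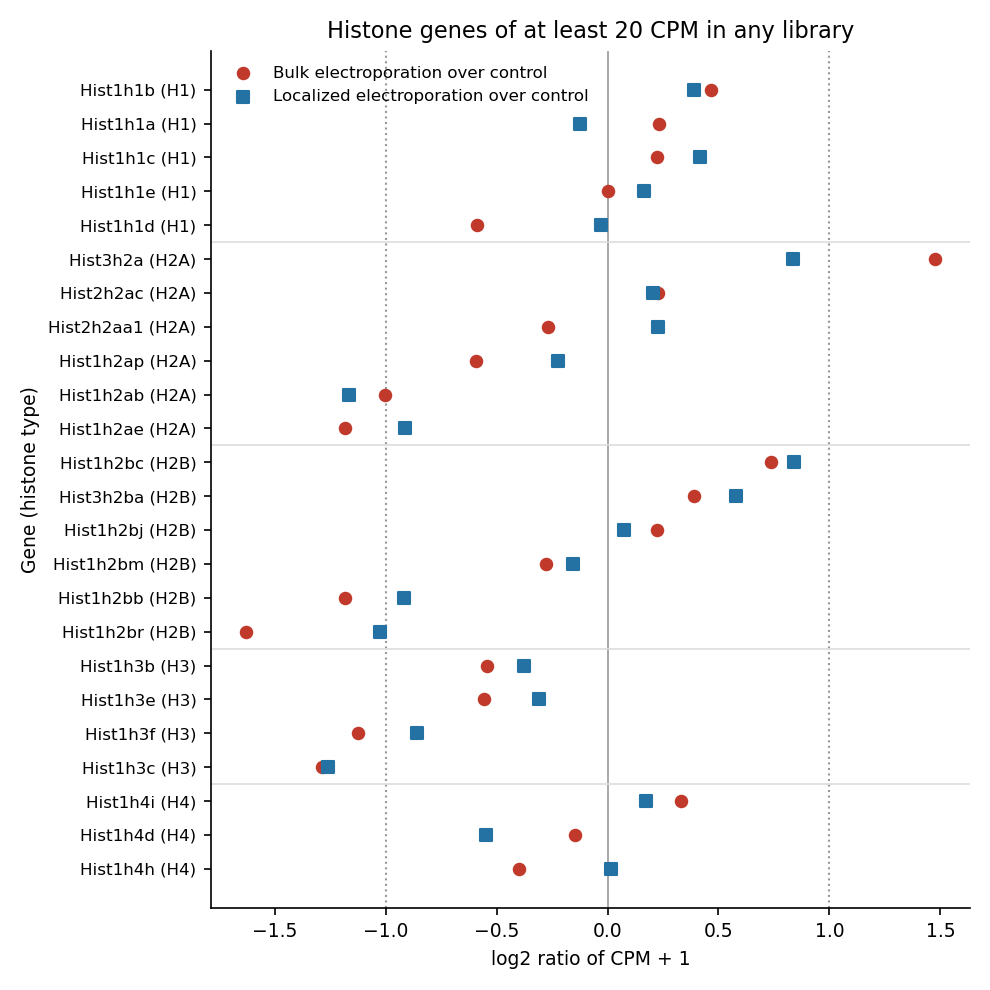
log2 ratio to control (CPM + 1) of the 24 histone genes of at least 20 CPM in any library, grouped by type, for bulk and for localized electroporation, with dotted lines at 2-fold. Hist3h2a, at 1.48, lies farthest to the right in bulk electroporation, Hist1h2bc and Hist3h2a, both at 0.84, do so in localized electroporation, all 4 H3 genes lie left of 0, and Hist1h2br lies farthest to the left in bulk electroporation, at -1.63.

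Of the remaining genes, Hist1h4h had 106 CPM in bulk, 141 CPM in localized electroporation and 140 CPM in control, and Hist1h4d had 107, 80.4 and 118 CPM. Both encode H4. Their ratios to control were -0.40 and 0.01 for Hist1h4h and -0.15 and -0.55 for Hist1h4d, in bulk and localized electroporation. Hist1h4i had 60.8, 54.5 and 48.1 CPM. Among H3 genes, Hist1h3b had 67.9, 76.3 and 99.3 CPM and Hist1h3e 44.9, 53.4 and 66.5 CPM. The last 4 H2A and H2B copies had log2 ratios to control between -0.28 and 0.23. Hist2h2ac had 44.2, 43.6 and 37.6 CPM, Hist2h2aa1 had 29.7, 42.3 and 36.0 CPM, Hist1h2bm had 23.8, 25.9 and 29.0 CPM and Hist1h2bj had 26.6, 23.9 and 22.7 CPM, each in bulk, localized electroporation and control.

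The treatments were also compared with each other. The sum over all 67 genes was lower in bulk than in localized electroporation, with a log2 ratio of -0.28. This value depended on some settings of depth and on Hist1h2ap. It was -0.28 in cells of at least 6000 UMIs, but -0.12 in cells of 6000 to 20000 UMIs and -0.08 when each cell was thinned to 3000 UMIs. Without Hist1h2ap it was -0.13, a sum whose ratio ran from -0.21 to 0.10 over the 6 other settings and so changed sign. Of 24 histone genes compared, 0 were at least 2-fold higher, where 0.95% of all 6002 genes were, and 0 were at least 2-fold lower, where 0.633% were. With no replicate there was no test, so no count at an unadjusted p exists. Ratios ran from -0.60 for Hist1h2br to 0.64 for Hist3h2a, with a median of -0.17, against -0.02 for all genes.

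Histone levels by depth of the cell showed where the libraries parted. In cells of 3000 to 6000 UMIs the sum was 4525 CPM in bulk, 4072 CPM in localized electroporation and 5752 CPM in control. In cells of 6000 to 10000 UMIs it was 6149, 3825 and 7633 CPM, so here bulk was above localized electroporation. In cells of 10000 to 20000 UMIs it was 8425, 10367 and 11915 CPM. In cells of 20000 UMIs or more it was 5507 CPM in bulk, 8491 CPM in localized electroporation and 8841 CPM in control. Control was highest in all 4 depth ranges. The deepest cells held 34.0% of all UMIs in bulk, 16.7% in localized electroporation and 7.63% in control.

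Whether these genes still followed S phase in these libraries was examined inside each library with a list of 39 S phase genes and a list of 52 G2/M genes, neither of which holds a histone of the 67. Each cell was thinned to 3000 UMIs, and cells with at least 9 UMIs of the S list (S-high) or at least 28 of the G2/M list (G2/M-high) were set apart, thresholds set at the upper 25% of all 17920 cells. With ties kept in, 4831 cells reached the S threshold and 4651 the G2/M threshold. These classes are ranges of a score, and 2449 cells lay within 1 UMI of the S threshold. The S-high class alone held 15.8% of cells in bulk, 21.5% in localized electroporation and 16.6% in control. Cells high in both held 12.9%, 6.07% and 8.16%, G2/M-high cells 18.9%, 14.4% and 18.2%, and cells in neither class 52.4%, 58.1% and 57.1%, each in bulk, localized electroporation and control.

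The histone sum followed the S list in all 3 libraries. In bulk electroporation it was 13490 CPM in S-high cells and 2598 CPM in cells of neither class. In localized electroporation these were 14655 and 3427 CPM, and in control 19225 and 4266 CPM. G2/M-high cells stood between, with 6911 CPM in bulk, 9739 CPM in localized electroporation and 10385 CPM in control. Cells high in both lists had 13844, 19980 and 21001 CPM. Control was thus highest within each of the 4 classes, by unequal amounts. For localized electroporation the ratios to control were -0.39 in S-high cells, -0.07 in cells high in both, -0.09 in G2/M-high cells and -0.32 in cells of neither class. For bulk they ran from -0.72 to -0.51. With the classes of each library weighed as in control, the ratios were -0.59 for bulk and -0.24 for localized electroporation. The levels of the 2 lists themselves differed between libraries, so a class need not hold matched cells. The part of the cell cycle in the lower sums was not tested.

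Single genes took part to different degrees. At least 2-fold higher in S-high cells than in cells of neither class were 19 of 24 histone genes in bulk, where 2.79% of all 5597 genes outside the lists were, 18 of 23 in localized electroporation (2.34% of all genes) and 21 of 23 in control (2.49%). Hist1h1b had the largest median ratio, with 1189 CPM in S-high cells and 134 CPM in cells of neither class in bulk, 975 and 163 CPM in localized electroporation, and 820 and 135 CPM in control. Its log2 ratios were 3.14, 2.58 and 2.59. Hist1h2ap had ratios of 2.55, 2.31 and 2.27, and Hist1h3c of 2.88, 2.58 and 2.41.

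At the other end stood 3 genes that were not higher in S-high cells of the treated libraries. Hist3h2a had 16.5 CPM in S-high cells and 26.2 CPM in cells of neither class in bulk, 9.02 and 17.8 CPM in localized electroporation, and 6.53 and 6.77 CPM in control. Hist3h2ba had 37.0 and 47.0 CPM in bulk, 43.4 and 63.4 CPM in localized electroporation, and 32.8 and 34.2 CPM in control. Hist1h2bc had 87.5 and 129 CPM in bulk, 107 and 132 CPM in localized electroporation, and 83.7 and 54.9 CPM in control. These were also the genes with the 3 highest ratios of either treated library to control among the core histone genes of at least 20 CPM in any library. Hist3h2a and Hist3h2ba have extended ends with an AATAAA in the last 60 bases, and no stem-loop was found in Hist1h2bc. Genes with short ends were at least 2-fold higher in S-high cells in 10 of 10 cases in bulk, 9 of 10 in localized electroporation (Hist2h2aa1 being the other) and 10 of 10 in control. Those with extended ends were in 6 of 10, 6 of 9 and 8 of 9 cases, among them Hist1h2ae, whose last 60 bases hold AATAAA. Those whose annotated transcripts showed no stem-loop were in 3 of 4 cases in each library, among them Hist1h1b.

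**Figure D4:**
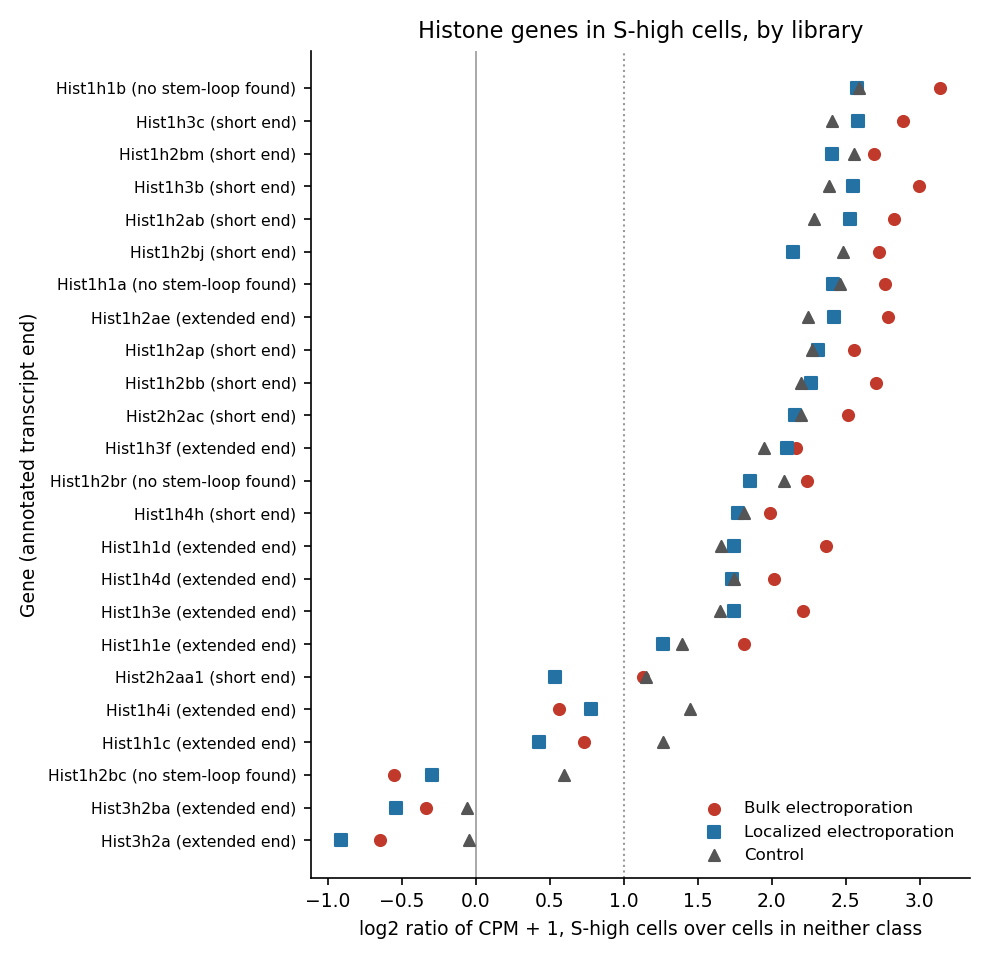
log2 ratio of CPM + 1 between S-high cells and cells in neither class for the 24 histone genes, 1 point per library, ordered by the median of the 3, with the annotated transcript end in brackets and a dotted line at 2-fold. Hist1h1b tops the order at 3.14, 2.58 and 2.59, and Hist3h2a, Hist3h2ba and Hist1h2bc lie at the bottom, below 0 in bulk and localized electroporation.

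Split by class, H3 kept its direction, while H1, H2B and H4 did not in every class. For H4 the direction changed in localized electroporation, with ratios to control from -0.30 in S-high cells to 0.06 in G2/M-high cells. H3 was lower in both treated libraries in S-high cells, with 465 CPM in bulk, 485 CPM in localized electroporation and 839 CPM in control, and in cells of neither class, with 81.0, 109 and 189 CPM. H1 in S-high cells was 2296 CPM in bulk, 2061 CPM in localized electroporation and 1902 CPM in control. In cells of neither class H1 was 460, 618 and 519 CPM, so there it was lower than control in bulk. The H2B sum parted by class. In S-high cells it was 377 CPM in bulk, 416 CPM in localized electroporation and 551 CPM in control. In cells of neither class it was 220, 258 and 180 CPM, with both treated libraries above control. Hist1h2bc and Hist3h2ba, both H2B genes given above, were themselves higher in both treated libraries than in control in that class. H2B without them was not summed by class, so this need not hold for the other H2B genes.

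Per cell, thinned to 3000 UMIs, the 67 genes gave a median of 7 UMIs in bulk, 8 in localized electroporation and 6 in control, while the means were 20.998, 22.1 and 27.4. The order of the medians was not that of the means, because the upper tails differed. The 90th percentile was 61 UMIs in bulk, 70 in localized electroporation and 85 in control. The 10% of cells with most histone UMIs held 39.9%, 39.9% and 41.0% of them.

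With rising S list UMIs the mean histone count climbed in each library. In cells of 0 to 3 S list UMIs the mean histone UMIs per thinned cell were 5.35 in bulk, 6.39 in localized electroporation and 6.04 in control. In cells of 20 or more S list UMIs they were 68.5 in bulk, 59.1 in localized electroporation and 79.9 in control. Treated and control libraries lay close in the lowest step and apart in the middle ones, with 35.1 in bulk, 38.9 in localized electroporation and 51.4 in control at 8 to 11 S list UMIs. The top step rested on 79, 74 and 38 cells. Over cells, Spearman's rho between histone and S list UMIs was 0.653 in bulk (5531 cells), 0.636 in localized electroporation (6298 cells) and 0.658 in control (6091 cells), with the cells of a library sharing its preparation.

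**Figure D5:**
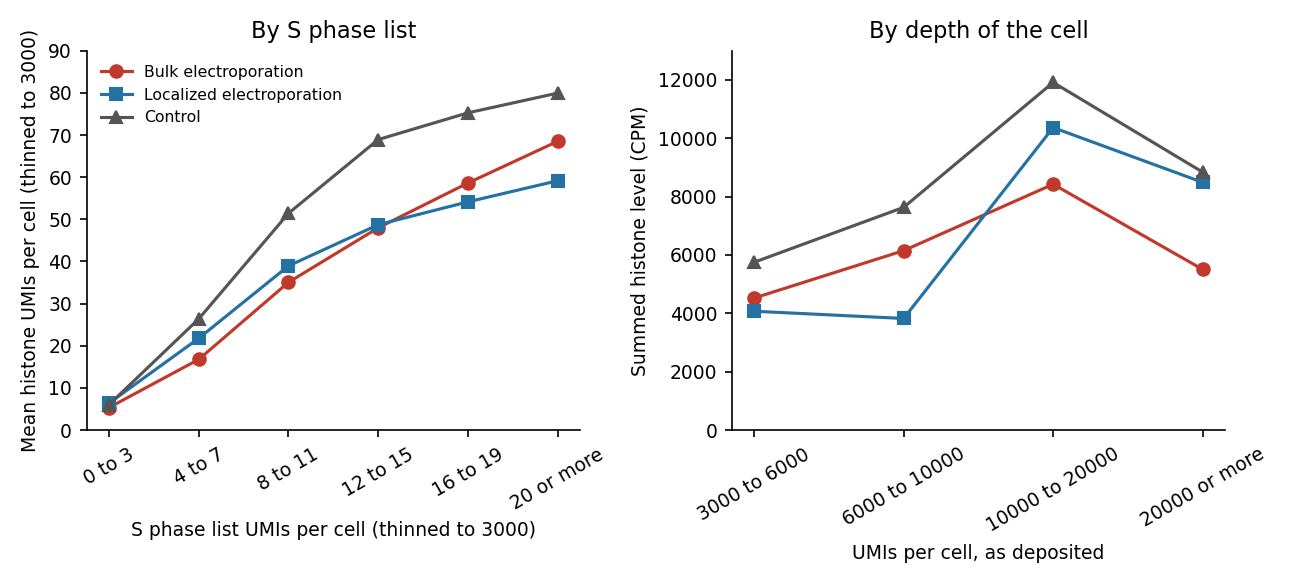
Left, mean histone UMIs per cell (thinned to 3000) by the cell's S list UMIs. Right, summed histone level (CPM) by the cell's deposited UMIs. Lines join the bins of 1 library. On the left control reaches 79.9 and lies above both treated libraries from 4 to 7 S list UMIs on, and on the right bulk electroporation is at 5507 CPM in cells of 20000 UMIs or more, where control has 8841 CPM.

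Most replacement histone genes are transcribed throughout the cycle and give polyadenylated RNA. As a set, the 11 listed did not share the lower levels of the clustered genes. The 11 genes summed to 8003 CPM in bulk, 8007 CPM in localized electroporation and 6506 CPM in control. In bulk 10 of 11 lay above control, with a median log2 ratio of 0.23, where 62.0% of all genes did, with a median of 0.07. In localized electroporation 9 of 11 did, with a median of 0.21, where 62.3% of all genes did, with a median of 0.09. Of the 11, 0 reached 2-fold against control, where 0.602% to 1.22% of all genes did in a given direction. H2afx, which is phosphorylated at DNA breaks, had 239 CPM in bulk, 245 CPM in localized electroporation and 143 CPM in control. H2afv had 471, 500 and 329 CPM and H3f3a 1364, 1702 and 1197 CPM. H1fx had 174 CPM in bulk, 126 CPM in localized electroporation and 101 CPM in control. H1f0, a linker histone of slowly dividing cells, was the 1 gene past 2-fold between bulk and localized electroporation, with 156 CPM in bulk, 75.9 CPM in localized electroporation and 97.4 CPM in control. H2afz had 2760, 2458 and 2129 CPM.

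Genes that transcribe histone genes and process or degrade their RNA were taken as a further list. Of 14 listed, 12 could be compared and 0 reached 2-fold in any comparison. Of all genes only 0.602% to 1.22% did in a given direction, so 0 of 12 says little. In bulk 10 of 12 lay above control, with a median of 0.15, where 62.0% of all genes did, with a median of 0.07. In localized electroporation 9 of 12 did, with a median of 0.11, where 62.3% of all genes did, with a median of 0.09. For bulk over localized electroporation the median was -0.03, against -0.02 for all genes. Slbp, which binds the stem-loop, had 92.7 CPM in bulk, 75.1 CPM in localized electroporation and 71.1 CPM in control. Npat, the coactivator of histone genes, had 23.3, 22.4 and 19.4 CPM, and Casp8ap2, which works in their 3′ end processing, had 56.0, 56.9 and 45.5 CPM. Upf1, a helicase that takes part in histone RNA decay, had 36.2, 33.1 and 25.04 CPM, and Ncbp2, of the cap-binding complex, had 56.1, 64.9 and 42.7 CPM.

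Histone chaperones, of which 13 of 15 could be compared, had medians of 0.17 for bulk and 0.07 for localized electroporation over control. All genes compared had medians of 0.07 and 0.09. Above control lay 9 of 13 in bulk and 10 of 13 in localized electroporation, where 62.0% and 62.3% of all genes did. Of the 13, 0 reached 2-fold, where 0.602% to 1.22% of all genes did in a given direction. Asf1a, which hands H3 and H4 to chromatin assembly factors, had 91.0 CPM in bulk, 103 CPM in localized electroporation and 73.8 CPM in control. Chaf1a, of the factor that assembles nucleosomes at replication forks, had 41.0, 40.1 and 29.996 CPM. Ssrp1, of the FACT complex, lay the other way, with 165, 145 and 192 CPM.

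The S phase list summed to 2142 CPM in bulk, 2061 CPM in localized electroporation and 1966 CPM in control. Of 31 S phase genes compared, 25 lay above control in bulk and 20 in localized electroporation, with medians of 0.11 and 0.10, and 0 reached 2-fold. Of all genes compared, 62.0% in bulk and 62.3% in localized electroporation lay above control, with medians of 0.07 and 0.09. At least 2-fold higher were 0.602% and 1.22% of them, and at least 2-fold lower 0.602% and 1.02%. For G2/M genes the median was 0.21 over control in bulk (49 compared) and -0.17 in localized electroporation (47 compared), again with 0 past 2-fold.

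Cells with at least 3 UMIs of the oligodendrocyte precursor markers made up 36.4% of cells in bulk, 41.7% in localized electroporation and 30.8% in control. They held less histone RNA than the other cells in each library. In bulk the sum was 5916 CPM in cells with precursor markers and 7411 CPM in the others, in localized electroporation 7273 and 9205 CPM, and in control 8199 and 10505 CPM. S-high cells, with or without G2/M, were also fewer among them, at 24.0% against 31.4% in bulk, 24.8% against 29.5% in localized electroporation and 20.4% against 26.7% in control. Control was highest among cells with precursor markers and among the others.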

How the data were processed

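The deposited files were matrices of UMI counts per gene and barcode, 1 per library, with all barcodes included; the counts were used as deposited and not normalized by the authors. Cell Ranger 4 is named per the file headers, and Cell Ranger 6, Seurat 4.0.4 and GRCm38 per the submitters' processing notes. The annotation release and the cell filter of the authors were not given in the sources used here. Libraries held 85743257 UMIs in bulk electroporation, 83803032 in localized electroporation and 74429007 in control, of which 90.4%, 90.9% and 83.0% lay in kept cells. Doublets were not removed.

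UMIs were summed over kept cells and scaled to CPM of 77491732, 76177026 and 61775756 UMIs in the same order. Each UMI came from a primed site, at a transcript end or within the transcript, and levels were not divided by length. Log2 ratios used a pseudocount of 1 CPM. A gene was compared at 20 CPM or more in either library and called at 2-fold, with no p-value, since each group had 1 library. Exact intervals were at 95%. Thinning used seed 1. The ratios and calls were tested on simulated data. Named genes were the 24 histone genes of at least 20 CPM in any library and up to 6 genes per list with the largest ratios. Hist1h2ao, Hist1h1t, Hist1h2ba, Hist1h2aa and the markers were named after their values were seen. The histone genes and lists were chosen with earlier results of these data known. Alternatives were median-of-ratios scaling, other limits on depth, pseudocounts and minimum levels, thinning, removal of free RNA and, added after seeing the data, the class mix of the control. Sequences came from GENCODE vM21 (GRCm38) and RefSeq. Python 3.11.15, numpy 2.4.6, scipy 1.17.1, pandas 2.3.3 and matplotlib 3.10.9 were used.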

Additional observations from a re-analysis of the deposited data

How the results depend on the processing

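The log2 ratio of the histone sum kept its sign in each comparison under every setting tried, 1 at a time. For the sum without Hist1h2ap, bulk over localized electroporation changed sign, from -0.21 to 0.10. For bulk over control (-0.51 as reported) it was -0.57 with median-of-ratios scaling, -0.54 in cells of at least 6000 UMIs, -0.40 in cells of 6000 to 20000 UMIs, -0.38 with cells thinned to 3000 UMIs, -0.54 with 10% free RNA taken away, -0.37 without Hist1h2ap and -0.59 with the class mix of the control. For localized electroporation over control (-0.23) it was -0.31, -0.26, -0.27 and -0.31 under the first 4 of these and -0.25 without Hist1h2ap. For bulk over localized electroporation (-0.28) it was -0.26 with median-of-ratios scaling, -0.28 in cells of at least 6000 UMIs and -0.12 in cells of 6000 to 20000 UMIs. The same ratio was -0.077 thinned, -0.30 with free RNA taken away, -0.13 without Hist1h2ap and -0.35 with the class mix of the control. Genes past 2-fold in bulk over control were 4 (1 higher, 3 lower) in cells of 6000 to 20000 UMIs and with thinning, against 7. In localized electroporation over control they were 5, all lower, with thinning and 6 (2 higher, 4 lower) with no minimum level, against 3. The count of 0 for bulk over localized electroporation held under each setting. Of 57 alternative values, 35 stayed within counting error or 1.5 times the reported count. The cause of the shifts was not tested. The ratios of all genes shifted by -0.07 at most under median-of-ratios scaling. No paired analysis was possible because each group had 1 library. The minimum of 20 CPM was a chosen setting, and counting error is widest for the genes of lowest level. Priming within transcripts and reads shared by copies limit all levels.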
